A study of Homo sapiens and Mus musculus with 33 samples.

Results

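Interferon response genes here are genes that cells switch on when interferons bind their receptors, together with receptors, sensors, an adaptor and transcription factors of the pathway itself. A set of 47 of them, chosen by name, was followed through RNA, histone H3 lysine 18 crotonylation (H3K18cr) and acetylation (H3K18ac) in human cells, and through RNA, H3K18cr and histone H3 lysine 4 trimethylation (H3K4me3) in mouse colon. All 47 were among the 35805 genes of the HCT116 RNA table, and 39 of them, in mouse spelling, were among the 25965 genes of the colon RNA table. Ifit5, Oas1, Oasl, Herc5, Ifi6, Ifi27, Ifi44l and Samd9 were not found there by that spelling. Peaks were taken as a member's when they lay in its gene interval or within 2 kb of it, which gave 52 of 40266 HCT116 peaks at 34 members, 39 of 30338 colon H3K18cr peaks at 32 members and 38 of 27035 colon H3K4me3 peaks at 29 members.

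The study asked how class I histone deacetylases set crotonylation in gut epithelium. HCT116 is a human colon cancer cell line, and its cells received either 5 µM MS275 (entinostat, an inhibitor of class I histone deacetylases) or the same amount of the solvent DMSO for 18 h. There were 4 RNA libraries per treatment, 3 libraries of each mark per treatment and 1 input library (chromatin without antibody) per treatment. Whether the 3 ChIP libraries of a group came from separate cultures is unclear from the sources used here. Colon epithelium came from untreated male C57BL/6 mice, with 3 RNA libraries, 2 H3K18cr libraries with their own inputs, and 3 H3K4me3 libraries with 1 shared input. Per the study's methods 3 colons were combined for colon ChIP, so its libraries may not stand for separate animals. A figure legend of the study speaks of colon ChIP from 2 mice, and its methods of 3 biological replicates for H3K4me3. The colon samples had no treated counterpart, so they give levels and no contrast. The labels name no interferon treatment, and all HCT116 samples stand for 1 cell line.

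Interferon signalling starts with receptors that activate STAT transcription factors. Type I interferon acts through a complex that includes STAT2 and IRF9 and binds the interferon-stimulated response element (ISRE), and interferon gamma acts at the gamma-activated site (GAS). The induced genes encode sensors of viral RNA, proteins that block virus entry, RNA decay and translation, the ubiquitin-like modifier ISG15 with its enzymes, and immunoproteasome subunits. Gut epithelium meets microbes constantly and is known to carry a basal level of this programme. Acetylation and crotonylation of H3K18 both mark active promoters, and H3K4me3 marks promoters in general.

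The promoters of these genes were searched for the letters of both elements in RefSeq windows (GRCh38.p14) that run from 250 bases before to 50 bases after each start. Windows were present for 38 of the 47 members, 50 windows in all. The ISRE letters GAAANNGAAA, which read TTTCNNTTTC on the other strand, stood in 29 of 50 member windows (58%) and in 1255 of all 35116 windows (3.57%). The GAS letters TTCNNNGAA, the same on both strands, stood in 11 of 50 member windows (22%) and in 2689 of all windows (7.66%). A letter match is a description of the window and not a measured binding site. The 160 bases before the start are given here for the modifier ISG15, for 3 members whose RNA was higher with MS275 in the paired test (IFI6, IFIT1 and HERC5), and for the transcription factor IRF1, whose promoter held a GAS match; capitals mark the matches, and overlapping matches run together.
ISG15, chr1:1013337-1013496, + strand: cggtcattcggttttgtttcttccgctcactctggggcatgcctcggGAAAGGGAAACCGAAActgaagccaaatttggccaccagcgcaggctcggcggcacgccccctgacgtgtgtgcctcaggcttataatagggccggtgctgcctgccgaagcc
IFI6, chr1:27672193-27672352, - strand: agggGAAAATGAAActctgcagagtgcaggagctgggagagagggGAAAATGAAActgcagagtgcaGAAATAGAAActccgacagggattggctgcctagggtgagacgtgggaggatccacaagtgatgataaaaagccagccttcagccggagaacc
IFIT1, chr10:89392463-89392622, + strand: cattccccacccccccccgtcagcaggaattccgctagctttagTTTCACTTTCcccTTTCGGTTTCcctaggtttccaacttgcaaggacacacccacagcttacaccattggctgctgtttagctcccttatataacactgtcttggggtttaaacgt
HERC5, chr4:88456959-88457118, + strand: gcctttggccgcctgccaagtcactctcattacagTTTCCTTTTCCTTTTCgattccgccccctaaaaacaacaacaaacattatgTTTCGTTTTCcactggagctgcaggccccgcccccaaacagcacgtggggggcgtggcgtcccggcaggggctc
IRF1, chr5:132490774-132490933, - strand: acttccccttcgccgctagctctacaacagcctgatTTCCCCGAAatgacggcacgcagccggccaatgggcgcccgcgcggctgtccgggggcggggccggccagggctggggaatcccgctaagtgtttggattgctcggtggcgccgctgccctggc

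The IFI6 stretch held 3 separate ISRE matches, the HERC5 stretch 3 of which 2 overlapped, the IFIT1 stretch 2, and the ISG15 stretch 2 that overlapped. The IRF1 stretch held 1 GAS match and no ISRE match. The windows of PSMB9, IFNGR1, STAT2 and MAVS held neither set of letters.

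The HCT116 RNA libraries held 35608533 to 53415604 counts and the colon RNA libraries 8166406 to 10707901. Among genes with 1 to 20 counts, odd values made up 50.4% to 80.7% of a HCT116 library and 74.5% to 75.8% of a colon library. The HCT116 libraries were split: DMSO 1, DMSO 3 and MS275 1 stood at 56.8%, 50.4% and 52.9%, and the others at 73.0% to 80.7%. The part of this split in the results below was not tested. The HCT116 ChIP libraries held 2236551 to 5730094 reads in peaks and the inputs 1374609 and 1550122. HCT116 cells carried the epithelial transcripts KRT8, KRT18, KRT19, EPCAM and CDH1, and 6 of 10 epithelial markers stood at or above 1 CPM per kb of exon, where CPM is counts scaled to equal library totals (colon) or to TMM-adjusted totals (HCT116). VIL1, CDX1 and LGALS4 were near 0. Summed immune markers reached 6.29 to 11.5 CPM over the 8 libraries and summed stromal markers moved from 11.7 to 13.9 CPM with DMSO to 22.7 to 26.2 CPM with MS275, while summed epithelial markers went from 3460 to 5177 CPM to 4479 to 6043 CPM; their part in the results below was not tested. In bulk RNA, fewer cells with a transcript and less of it per cell cannot be told apart.

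In HCT116 cells given DMSO the members were expressed at a broad range of levels. Their median level with DMSO was 1.39 CPM per kb, against 0.724 over all genes with a length, and 28 of 47 reached 1 CPM per kb, against 47.7% of all genes. ISG15 had the highest mean at 90.1 ± 37.4 CPM per kb (SD, n = 4), followed by the virus entry blocker IFITM3 at 77.2 ± 8.03. IFITM3 was above ISG15 in some DMSO libraries, so their order was not resolved. At the other end 10 members lay below 0.1 CPM per kb. MX2, a GTPase that blocks viral import into the nucleus, and IFI44L were at 0 counts in all 8 libraries. The 8 genes of the interferon ligand list fixed beside the members were too low to be tested, and 5 of them had no count in any library.

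Set against the DMSO libraries, the summed level of the 47 members barely moved, from 1040 to 1180 CPM with DMSO to 1005 to 1175 CPM with MS275. This sum follows its most abundant genes, led by IFITM3 and MAVS at means of 219 and 189 CPM with DMSO, and says little of the lower ones. Of the 47, 39 passed the filter on low counts and 8 did not (OAS1, OAS2, MX2, RSAD2, IFI44, IFI44L, XAF1 and SAMD9L). Levels in every library are shown in the plot of the 47 genes.

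**Figure D1:**
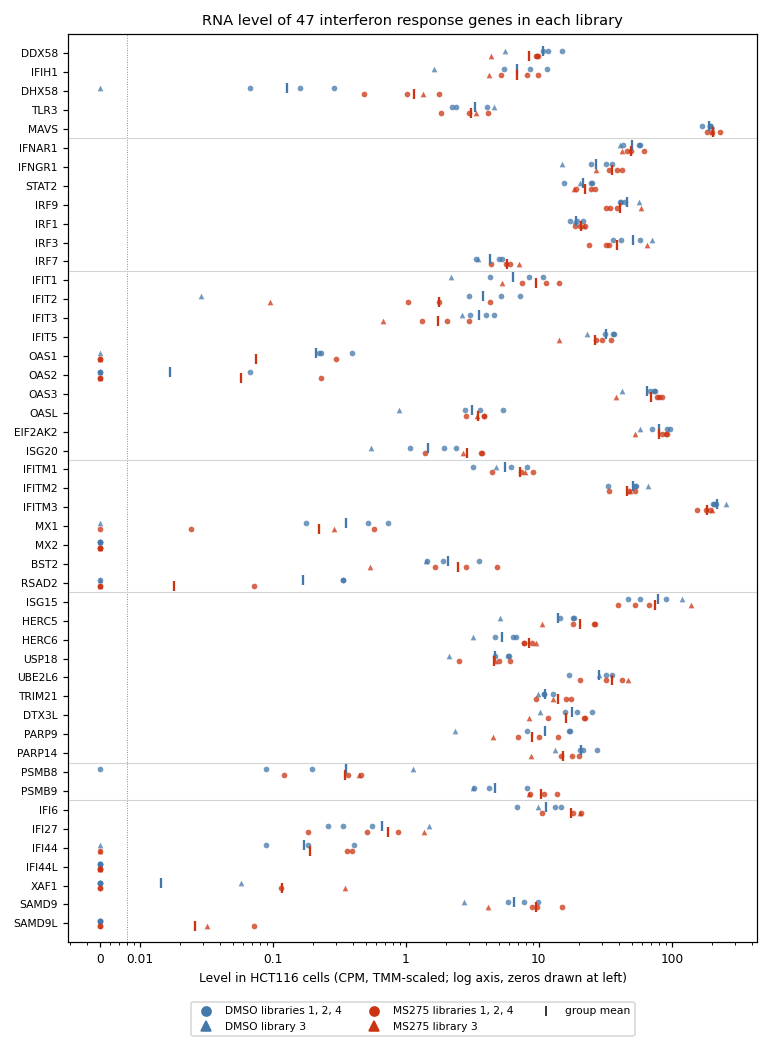
RNA level of the 47 members in each HCT116 library, as TMM-scaled CPM on a log axis, with zeros drawn at the left edge; blue points are DMSO libraries, red points MS275 libraries, triangles the libraries numbered 3 and short bars the group means. Blue and red points overlap for most members; DHX58, HERC6 and PSMB9 are higher in all 4 MS275 libraries than in any DMSO library, and IFITM3 is lower.

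Without regard to replicate numbers, no member was called by edgeR's quasi-likelihood test at an adjusted p under 0.05. Over all 14961 genes tested 0.00668% were called, and DESeq2 without the block called 0 members too, against 0.993% of the genes with an adjusted p. At an unadjusted p under 0.05 the edgeR test had 3 members (DHX58, HERC6 and PSMB9), against 6.60% of all genes, and DESeq2 had 5, against 6.39%. The libraries that share a number deviated together, as described with the processing, and the same test with the replicate number as a block called 5 members higher and 3 lower. The background of that test was 7.83% of genes higher and 6.55% lower, and 14 of the 39 members had an unadjusted p under 0.05, against 29.2% of all genes. DESeq2 with the block called 6 of 38 members higher and 3 lower, against 9.14% and 8.65% of the genes with an adjusted p. The median log2 change of the 39 members with the block was 0.08, against 0.01 over all genes, and 24 of 39 changes were above 0, against 51.0% of all genes.

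Groups did not overlap in 3 members that were higher with MS275, against a background of 3.48% of all genes, and in 1 that was lower, against 1.89%. All 4 same-numbered pairs were higher with MS275 in 11 of the 39 members, against 19.2% of all genes. The calls under the block moved with single replicates. Leaving out number 1 left 2 of the 8 and leaving out number 2 left 2, while 7 members were called without number 3 and 3 without number 4.

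**Figure D2:**
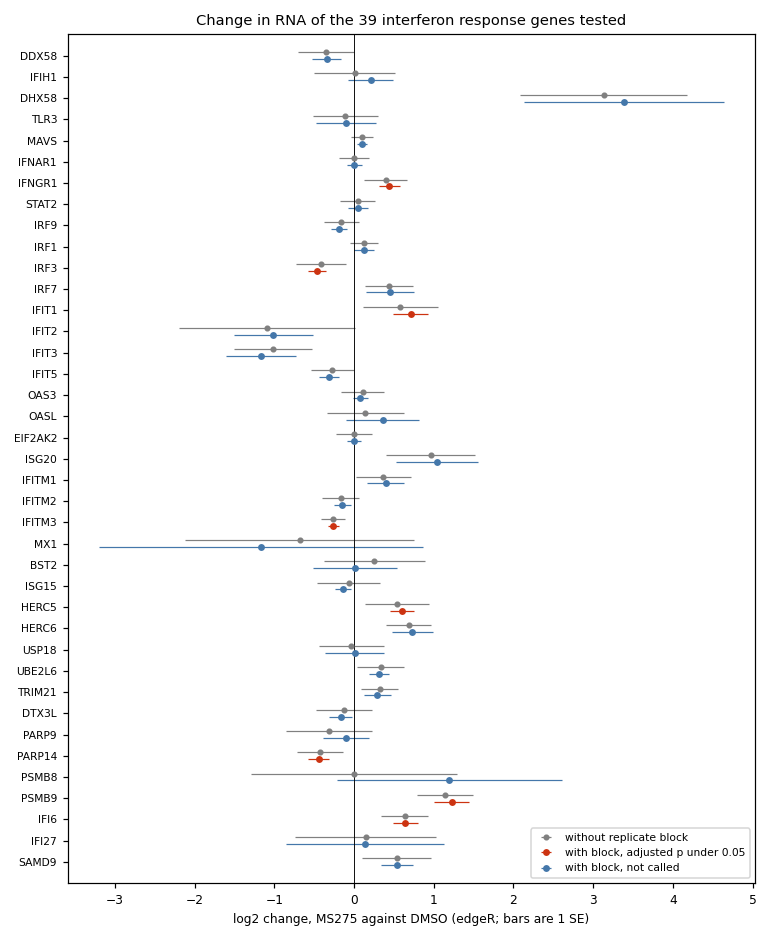
Change in RNA with MS275 against DMSO for the 39 members tested, as log2 change with bars of 1 SE from edgeR, n = 4 libraries per treatment; grey points are without the replicate block, red points are called with the block and blue points are not called with it. The block shortens the bars more than it moves the points, and PSMB9, IFI6, HERC5, IFNGR1 and IFIT1 stand to the right of 0 and IRF3, PARP14 and IFITM3 to the left among the called genes.

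None of the 5 sensors and adaptors was called by edgeR, with or without the block, and DESeq2 with the block called DHX58. MAVS, the mitochondrial adaptor of the RNA sensors and the most abundant of the group (chr20:3846799-3876123, + strand, GRCh38), measured 169.6, 193, 202 and 194 CPM with DMSO and 185, 199, 199.6 and 229 CPM with MS275. Its groups overlapped, with a log2 change of 0.10 ± 0.07 (SE; edgeR with the block, adjusted p = 0.352). IFIH1, known as MDA5, measured 5.43, 8.57, 1.62 and 11.6 CPM with DMSO and 5.21, 8.08, 4.24 and 9.84 CPM with MS275. DMSO library 3 was its lowest value and the groups overlapped. DHX58, known as LGP2, was chosen after its values were seen: it measured 0.067, 0.287, 0 and 0.161 CPM with DMSO and 1.01, 1.79, 1.34 and 0.486 CPM with MS275. Every MS275 library was above every DMSO library, but the gene was close to the limit of counting, its adjusted p was 0.0905 with edgeR and the block (log2 change 3.39 ± 1.25), and DESeq2 with the block gave 0.00685.

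Among the 7 receptors and transcription factors, the interferon gamma receptor chain IFNGR1 rose and IRF3 fell in the paired test. IFNGR1 (chr6:137197484-137219449, - strand) measured 24.8, 32.0, 15.0 and 35.8 CPM with DMSO and 33.5, 42.4, 27.1 and 38.4 CPM with MS275. Each MS275 library was above the DMSO library of its number although the groups overlapped, and the log2 change was 0.44 ± 0.13 (edgeR with the block, adjusted p = 0.0361; 0.88 without it). IRF3, the factor that turns on interferon genes after viral RNA is sensed (chr19:49659569-49665875, - strand), measured 57.2, 41.2, 70.7 and 36.3 CPM with DMSO and 33.5, 32.0, 64.9 and 23.8 CPM with MS275. All 4 pairs were lower, by -0.47 ± 0.11 on the log2 scale (edgeR with the block, adjusted p = 0.0178; 0.91 without it). IFNGR1 was called without number 4 only and IRF3 without number 3 only, among the 4 fits that left out a number (highest adjusted p in edgeR 0.115 and 0.11).

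Of the 8 RNA-directed effectors tested, IFIT1 rose and none fell. IFIT1, which binds viral RNA ends (chr10:89392546-89406486, + strand), measured 4.33, 10.8, 2.2 and 8.38 CPM with DMSO and 7.53, 14.2, 5.29 and 11.3 CPM with MS275. Every pair was higher with MS275, by 0.71 ± 0.22 on the log2 scale (edgeR with the block, adjusted p = 0.0461; 0.913 without it), but the groups overlapped and no fit that left out a number called it. Its neighbours on chromosome 10 did not share this: IFIT5 measured 36.1, 31.5, 23.0 and 36.9 CPM with DMSO and 34.7, 26.7, 14.1 and 30.0 CPM with MS275, with a log2 change of -0.32 ± 0.12 (edgeR with the block, adjusted p = 0.106). IFIT2 and IFIT3, chosen after their values were seen, had log2 changes of -1.01 ± 0.49 and -1.17 ± 0.44 (edgeR with the block, adjusted p = 0.193 and 0.0949). IFIT2 was called in the fit without number 3 (adjusted p = 0.0214), where DMSO library 3 held 0.0289 CPM of it and MS275 library 3 held 0.0957. EIF2AK2, the kinase PKR that halts translation on double-stranded RNA, measured 70.9, 91.9, 58.0 and 97.1 CPM with DMSO and 84.1, 89.7, 52.4 and 92.0 CPM with MS275. Its groups covered the same range.

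Of the 5 membrane and GTPase effectors tested, IFITM3 fell and none rose. IFITM3 (chr11:319669-327537, - strand) measured 207, 204, 253 and 214 CPM with DMSO and 155, 194, 202 and 181 CPM with MS275. The groups did not overlap, and the log2 change was -0.26 ± 0.07 (edgeR with the block, adjusted p = 0.026; 0.845 without it). The call was lost without number 1 and without number 4 (highest adjusted p 0.119). IFITM2, a close copy, measured 33.2, 52.8, 66.3 and 53.6 CPM with DMSO and 33.7, 47.9, 48.6 and 52.9 CPM with MS275 (log2 change -0.15 ± 0.10; edgeR with the block, adjusted p = 0.379). IFITM1, IFITM2 and IFITM3 are similar in sequence. The study's RNA methods, which name the mouse genome, kept uniquely mapped reads, and whether this held for HCT116 is not given in the sources used here, so the split among them is uncertain.

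All 9 members of the ISG15, ubiquitin and ADP-ribose group were tested. HERC5, the ligase that attaches ISG15 to proteins, rose and PARP14, an ADP-ribosyltransferase, fell. HERC5 (chr4:88457117-88506163, + strand) measured 14.5, 18.2, 5.15 and 18.4 CPM with DMSO and 18.2, 26.2, 10.6 and 26.7 CPM with MS275. All pairs were higher with MS275, by 0.60 ± 0.15 on the log2 scale (edgeR with the block, adjusted p = 0.0192; 0.903 without it), and the groups overlapped. The call was lost without number 2 and without number 4 (highest adjusted p in edgeR 0.0805). PARP14 (chr3:122680618-122730840, + strand) measured 21.6, 20.5, 13.2 and 27.1 CPM with DMSO and 17.8, 14.6, 8.70 and 20.2 CPM with MS275, a log2 change of -0.45 ± 0.13 (edgeR with the block, adjusted p = 0.0398; 0.883 without it), called without number 3 and lost without any other number (highest adjusted p 0.176). ISG15 itself (chr1:1001138-1014541, + strand) measured 89.8, 57.5, 118 and 46.9 CPM with DMSO and 66.8, 52.9, 139 and 39.4 CPM with MS275. The pairs numbered 1, 2 and 4 were lower and pair 3 higher, and the log2 change of -0.14 ± 0.10 was not called (edgeR with the block, adjusted p = 0.399). UBE2L6, the conjugating enzyme for ISG15, measured 17.0, 35.4, 28.5 and 31.8 CPM with DMSO and 20.5, 42.5, 46.6 and 32.1 CPM with MS275, with a log2 change of 0.32 ± 0.12 (edgeR with the block, adjusted p = 0.109). HERC6, chosen after its values were seen, lay between 3.18 and 6.77 CPM with DMSO and between 7.67 and 9.47 CPM with MS275, and its log2 change of 0.73 ± 0.26 was not called (edgeR with the block, adjusted p = 0.0781).

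The immunoproteasome subunit PSMB9 had the smallest adjusted p of the 39 members. PSMB9 (chr6:32844136-32859585, + strand) measured 3.26, 4.20, 3.21 and 8.19 CPM with DMSO and 8.61, 10.9, 8.45 and 13.8 CPM with MS275. Its interval contains the gene TAP1, on the other strand, at a mean of 62.2 CPM with DMSO. How far TAP1 reads entered the PSMB9 count was not tested. Every MS275 library was above every DMSO library, and the level rose 2.34-fold (log2 change 1.23 ± 0.22; edgeR with the block, adjusted p = 0.0035; 0.465 without it). It was called in all 4 fits that left out a number, with adjusted p from 0.00414 to 0.0283 in edgeR. PSMB8, its neighbour and partner subunit, was near the limit of counting at 0.0893, 0, 1.13 and 0.197 CPM with DMSO and 0.369, 0.121, 0.446 and 0.463 CPM with MS275. Its groups overlapped and nothing can be read from its fold.

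Of the 3 other induced genes tested, IFI6 rose. IFI6, a mitochondrial and endoplasmic reticulum membrane protein (chr1:27666061-27672218, - strand), measured 6.90, 14.8, 9.92 and 13.3 CPM with DMSO and 10.6, 20.8, 20.2 and 18.1 CPM with MS275. Each pair was higher, by 0.64 ± 0.16 on the log2 scale (edgeR with the block, adjusted p = 0.0168; 0.76 without it), and the call was lost without number 1 and without number 2 (highest adjusted p in edgeR 0.0579). SAMD9 measured 5.87, 7.69, 2.75 and 9.78 CPM with DMSO and 8.91, 9.70, 4.18 and 15.0 CPM with MS275; all pairs were higher, and the log2 change of 0.54 ± 0.20 was not called (edgeR with the block, adjusted p = 0.0856).

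A library order ran through the members. DMSO library 3 was the lowest DMSO library for 24 of 39 members (61.5%), against 37.3% of all genes tested, and MS275 library 3 was the lowest for 18 (46.2%), against 36.6%. MS275 library 4 was the highest of its group for 19 members (48.7%), against 24.7%. DMSO library 3 was the highest of its group for 9 members (23.1%), against 36.7% of all genes, and MS275 library 3 for 8 (20.5%), against 37.6%. IRF3, IRF9, IFITM3, ISG15 and IFI27 were highest in both libraries numbered 3.

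Beyond the members, a list of 52 other pathway genes held 51 found by name, of which 35 were tested. None was called without the block, where 2 had an unadjusted p under 0.05 with edgeR and 2 with DESeq2. With the block edgeR called 1 higher and 0 lower, against 7.83% and 6.55% of all genes, and 10 of the 35 had an unadjusted p under 0.05, against 29.2%. The gene called was IFNAR2, the second chain of the type I interferon receptor, with 14.4, 21.4, 12.8 and 15.6 CPM with DMSO and 22.3, 21.8, 19.0 and 27.6 CPM with MS275 (log2 change 0.51 ± 0.15; edgeR with the block, adjusted p = 0.0388). The call was lost without number 1, 3 or 4 (highest adjusted p 0.222). DESeq2 with the block called 4 higher and 3 lower, against 9.14% and 8.65%.

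H3K18cr and H3K18ac were read at the same 52 HCT116 peaks, 33 of which lay within 1 kb of an annotated start of 31 members. These 31 members had a median RNA level of 2.01 CPM per kb with DMSO, and the 16 without a promoter peak 0.122 CPM per kb. With MS275 both marks were lower at a part of the member promoters, and the size and the number of calls depended on how libraries were scaled. In H3K18cr, 13 of the 52 peaks were lower and 1 higher by limma, against 23.0% and 0.232% of all peaks. All 13 were promoter peaks, so 13 of 33 (39.4%) were lower, against 55.1% of all promoter peaks. The median log2 change at member promoter peaks was -0.46, against -0.54 at all promoter peaks and -0.20 over all peaks. With TMM scaling in edgeR these promoter medians were -0.19 and -0.31, with 5 of 33 lower (15.2%) against 30.5%. With DESeq2 they were -0.20 and -0.30, with 2 of the 20 that had an adjusted p lower against 31.9%. With the replicate number as a block in limma, 16 of 33 were lower (48.5%), against 60.9%. Leaving out MS275 library 2 reduced the count of lower peaks to 7 (21.2% of the member promoter peaks), and the share of all promoter peaks to 38.2%.

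In H3K18ac, 11 of the 52 peaks were lower and 0 higher by limma, against 16.3% and 0.264% of all peaks. Of the 33 promoter peaks 10 were lower (30.3%), against 43.1% of all promoter peaks, with a median log2 change of -0.52 against -0.60. With TMM scaling in edgeR the medians were -0.27 and -0.35, with 11 of 33 lower (33.3%) against 44.1%, and with DESeq2 -0.28 and -0.35, with 7 of 25 lower against 42.2%. With the replicate number as a block in limma 2 of 33 were lower (the wide ISG15 peak and IFITM3), against 5.40%. The count of 10 and the share of all promoter peaks moved together when a library was left out. They were 4 and 21.0% without DMSO library 2, 4 and 25.3% without DMSO library 3, 2 and 9.82% without MS275 library 2, and 3 and 13.1% without MS275 library 3. They were 15 and 56.4% without DMSO library 1, and 13 and 50.5% without MS275 library 1. For the absence of higher calls in H3K18ac, 2 peaks were called higher by edgeR with TMM scaling and 0 by DESeq2. The deposited values are scaled to the largest library, and the median of all peaks was below 0 under it. TMM scaling moved that median from -0.20 to 0.04 in H3K18cr and from -0.19 to 0.06 in H3K18ac. Under it 5 member peaks were lower and 2 higher in H3K18cr, where all peaks gave 11.5% and 2.26%, and 12 were lower and 2 higher in H3K18ac, where all peaks gave 16.6% and 4.60%. The higher ones, named after their values were seen, were peaks in OASL and ISG20 away from their starts in H3K18cr, and the IRF9 promoter peak and a peak upstream of OAS3 in H3K18ac. DESeq2 gave an adjusted p to 23 member peaks in H3K18cr and called 2 lower and 1 higher (the same ISG20 peak), against 20.3% and 0.723% of all such peaks. In H3K18ac it called 7 of 29 lower and 0 higher, against 24.7% and 1.67%. A total change in a mark over the whole genome cannot be seen under any of these scalings.

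**Figure D3:**
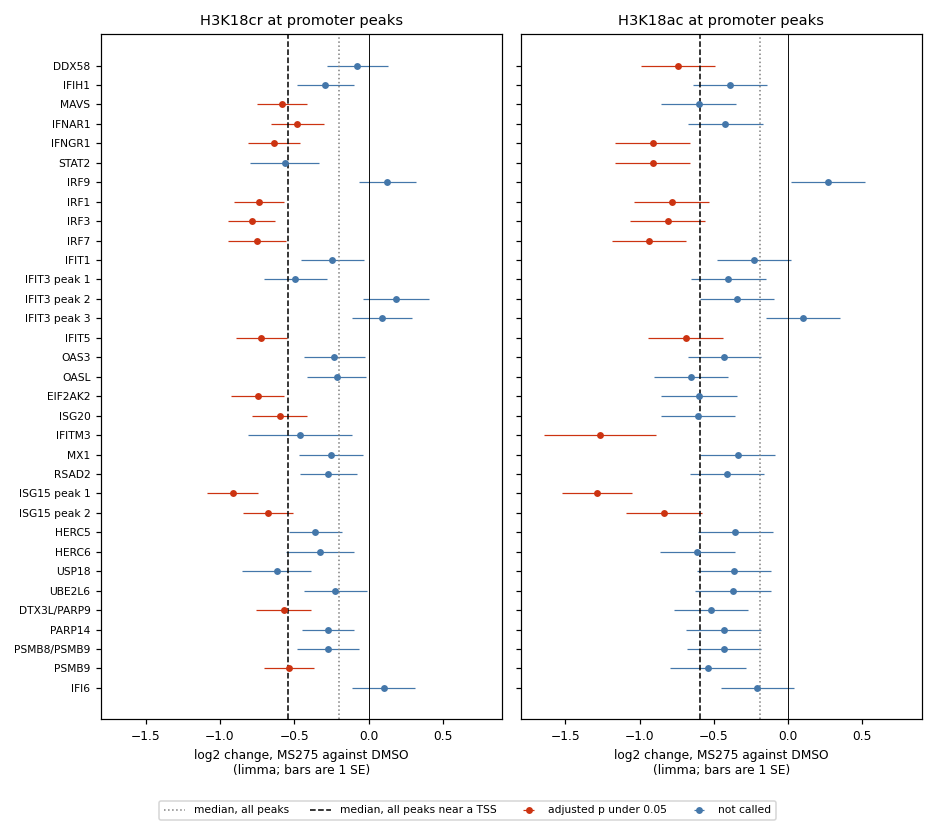
Change in H3K18cr (left) and H3K18ac (right) with MS275 at the 33 promoter peaks of the members, as log2 change of the deposited scaled values with bars of 1 SE from limma, n = 3 libraries per treatment and mark; red points are called, and the lines give the median of all peaks (dotted) and of all peaks near a start (dashed). Most points lie between 0 and -1 around the dashed lines at -0.54 and -0.60; the wide peak at ISG15 is the lowest in both marks, and IRF9 is above 0 in both.

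The lowest values in both marks stood at ISG15. A wide peak (chr1:997501-1007700, GRCh38), which covers an alternative start of ISG15 and neighbouring genes as well, measured 1156, 1035 and 1573 scaled reads of H3K18cr with DMSO and 608, 534 and 866 with MS275. Its H3K18ac measured 1182, 1664 and 2226 scaled reads with DMSO and 823, 625 and 588 with MS275. The groups did not overlap in either mark, and the log2 change was -0.91 ± 0.17 in H3K18cr (limma, adjusted p = 0.000228) and -1.28 ± 0.24 in H3K18ac (limma, adjusted p = 2.67e-05). Both calls held in all 6 fits that left out a library, and the H3K18cr call was lost in DESeq2 (adjusted p = 0.0954). The input at this peak was 207 scaled reads with DMSO and 146 with MS275, from 1 input library each and so without a spread. The mean ChIP over input went from 6.05 to 4.59 in H3K18cr and from 8.15 to 4.66 in H3K18ac.

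The peak at the main ISG15 promoter, which holds the stretch printed above (chr1:1011601-1015650), measured 252, 292 and 295 scaled reads of H3K18cr with DMSO and 169, 147 and 215 with MS275. The groups did not overlap, and the log2 change was -0.68 ± 0.17 (limma, adjusted p = 0.00308; 0.0514 without MS275 library 2). The call was lost under TMM scaling in edgeR (adjusted p = 0.0609) and in DESeq2 (0.0847). Its H3K18ac measured 187, 311 and 389 scaled reads with DMSO and 208, 153 and 125 with MS275. Here 1 MS275 library was above the lowest DMSO library, and the log2 change was -0.84 ± 0.25 (limma, adjusted p = 0.0107), lost without DMSO library 2, DMSO library 3, MS275 library 2 or MS275 library 3 (highest adjusted p 0.23), or once replicate number was a block (limma, 0.17). The RNA of ISG15 was not called in the same treatment.

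The regulators IRF3, IRF7 and IRF1 were lower in both marks. The IRF3 promoter peak (chr19:49663201-49667400) measured 376, 360.3 and 322 scaled reads of H3K18cr with DMSO and 187, 212 and 215 with MS275, and its H3K18ac 361, 365 and 575 with DMSO and 267, 226 and 233 with MS275. Groups were apart in both marks, with log2 changes of -0.79 ± 0.16 (limma, adjusted p = 0.000419) and -0.81 ± 0.25 (limma, adjusted p = 0.0125). IRF3 was the only member called lower in the paired RNA test and in both marks. The IRF7 peak (chr11:614851-617100) measured 119, 106 and 133 scaled reads of H3K18cr with DMSO and 66.4, 59.5 and 89.8 with MS275, and its H3K18ac 123, 121 and 187 with DMSO and 80.5, 59.4 and 82.8 with MS275. Its log2 changes were -0.75 ± 0.19 (limma, adjusted p = 0.00401) and -0.94 ± 0.25 (limma, adjusted p = 0.00322), again with groups apart. The H3K18cr call at IRF7 was lost under TMM scaling in edgeR (adjusted p = 0.0679) and in DESeq2 (0.118). The IRF1 peak had log2 changes of -0.74 ± 0.17 and -0.78 ± 0.25 (limma, adjusted p = 0.0013 and 0.0174). In H3K18cr these calls held with any 1 library left out. In H3K18ac those of IRF3 and IRF1 were lost without DMSO library 2, DMSO library 3, MS275 library 2 or MS275 library 3 (highest adjusted p in limma 0.16 and 0.204), and that of IRF7 without MS275 library 2 (0.116). With the replicate number as a block the H3K18ac calls of IRF3, IRF7 and IRF1 were lost (limma, adjusted p = 0.198, 0.082 and 0.208).

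Other peaks were called in 1 mark. The EIF2AK2 promoter peak (chr2:37155751-37158000) measured 185, 150.1 and 141 scaled reads of H3K18cr with DMSO and 88.9, 99.1 and 94.0 with MS275, a log2 change of -0.75 ± 0.18 (limma, adjusted p = 0.00196; DESeq2, 0.0532), while its H3K18ac change of -0.60 ± 0.25 was not called (limma, adjusted p = 0.089). The STAT2 peak (chr12:56358901-56362050) measured 141, 231 and 279 scaled reads of H3K18ac with DMSO and 129.8, 101 and 105 with MS275 (log2 change -0.91 ± 0.25; limma, adjusted p = 0.0047), while its H3K18cr had an adjusted p of 0.0759 in limma. The STAT2 call was lost without DMSO library 2, MS275 library 2 or MS275 library 3 (highest adjusted p in limma 0.101) and with the block (limma, 0.112). A small peak at the IFITM3 promoter (chr11:320251-320850) held few reads, 22.6, 19.6 and 29.6 scaled reads of H3K18ac with DMSO and 7.79, 11.5 and 10.5 with MS275 (log2 change -1.27 ± 0.38; limma, adjusted p = 0.00874; 0.113 without DMSO library 3). A call in 1 mark alone does not show that the marks differ: the test of the difference called 0% of all 40266 peaks and 0 of the 52 member peaks (limma), where 739 and 1 had an unadjusted p under 0.05.

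IFNGR1 and IFIT5 were also lower in both marks. MAVS, IFNAR1, ISG20, the PSMB9 peak that also covers the start of TAP1, and the peak shared by DTX3L and PARP9 were lower in H3K18cr. DDX58 (the sensor RIG-I) was lower in H3K18ac. PSMB8 had a called H3K18ac peak that was not at its promoter. Of these H3K18cr calls, that of IFIT5 held in edgeR with TMM scaling (adjusted p = 0.0248) and with any 1 library left out, while those of IFNGR1, MAVS, IFNAR1, ISG20, PSMB9 and DTX3L with PARP9 were lost under TMM (0.0937, 0.0862, 0.317, 0.224, 0.195 and 0.163). They were also lost in limma without MS275 library 1 (IFNGR1, IFNAR1, ISG20 and PSMB9), MS275 library 2 (MAVS, IFNAR1, ISG20, PSMB9 and DTX3L with PARP9), DMSO library 1 (MAVS, IFNAR1, PSMB9 and DTX3L with PARP9) or DMSO library 2 (MAVS, IFNAR1 and DTX3L with PARP9). DESeq2 called none of these H3K18cr peaks (IFIT5, adjusted p = 0.0559), and in H3K18ac it called IFNGR1 (0.00263) but not DDX58 (0.106), IFIT5 (0.0834) or PSMB8 (0.0957). The H3K18ac calls of DDX58, IFIT5 and PSMB8 were lost without DMSO library 2, DMSO library 3, MS275 library 2 or MS275 library 3, and that of IFNGR1 without MS275 library 2 or MS275 library 3. With the replicate number as a block the H3K18ac calls of IFNGR1, IFIT5, DDX58 and PSMB8 were lost too (limma, adjusted p = 0.107, 0.253, 0.15 and 0.227). The highest adjusted p in limma with a library left out was 0.257 among the H3K18cr calls (IFNAR1) and 0.303 among the H3K18ac calls (PSMB8). IRF9 and IFI6 had H3K18cr changes of 0.13 ± 0.19 and 0.10 ± 0.21 that were not called (limma, adjusted p = 0.736 and 0.817). The single higher call was an intragenic H3K18cr peak of OASL (chr12:121035601-121037250), which measured 38.0, 31.4 and 27.8 scaled reads with DMSO and 46.1, 68.0 and 47.7 with MS275 (log2 change 0.72 ± 0.23; limma, adjusted p = 0.0219). Its groups were apart. The DMSO signal there equalled the input (ChIP over input 0.994), and the call was lost without DMSO library 2 and without MS275 library 2 (highest adjusted p in limma 0.194). At the threshold, IFNAR1 was just inside in H3K18cr (limma, adjusted p = 0.0489) and USP18 just outside (0.0528), and in H3K18ac IFIT5 was just inside (0.0417) and OASL just outside (0.0546).

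Changes in RNA and in marks were set side by side, with a single promoter peak per gene. For ISG15 this was the wide peak, which also covers neighbouring genes, and not the peak at its main promoter. Over the 30 members with an RNA test and a promoter peak, the correlation of the log2 changes was 0.08 for H3K18cr (Pearson; Spearman 0.09) and 0.05 for H3K18ac (Spearman 0.08), given as a description across genes, some of which share a peak. PSMB9, whose RNA rose 2.34-fold, had a log2 H3K18cr change of -0.54 ± 0.17 at its promoter peak (limma, adjusted p = 0.0178). That peak also covers the start of TAP1 (chr6:32845209-32853978, - strand). TAP1 RNA averaged 62.2 CPM with DMSO and had a log2 change of -0.04 ± 0.09 (edgeR with the block, adjusted p = 0.808). The change of the peak cannot be assigned to PSMB9 alone.

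Mouse colon epithelium carried many of the genes without treatment, at a broad range of levels. The isolated cells had the epithelial markers at 94.1 CPM per kb or more in 10 of 10, while immune markers had a median of 1.03 and a highest value of 18.2 CPM per kb (Cd74) and stromal markers a median of 0.353. Immune cells also express interferon response genes, and their part in the colon levels was not tested. The 39 members had a median of 5.01 CPM per kb, against 0.412 over all genes. Of the 39, 28 reached 1 CPM per kb, against 45.2% of all genes. Ranked by level among all genes, the members ran from percentile 37.5 (Mx2) to 99.1 (Ifitm2), with the median member, Irf9, at 69.3. The ligand genes found in the table were at 0 counts in all 3 mice.

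Ifitm2 was the highest member at 177, 192 and 158 CPM per kb in the 3 mice, clear of all others. The interferon gamma receptor chain Ifngr1 came next at 58.2, 52.2 and 47.1, then Ifitm3 at 50.05, 40.5 and 39.7 CPM per kb. Their ranges overlapped, with Ifngr1 above Ifitm3 in each mouse. The transcription factors Irf1 and Irf3 stood at 33.5, 26.2 and 28.6 and at 23.0, 24.2 and 27.4 CPM per kb, and the exonuclease Isg20 at 20.7, 20.1 and 24.1. The ranges of neighbours among these overlapped, while Irf1 was above Irf3 and Irf3 above Isg20 in each mouse. Isg15 was low for its HCT116 rank and uneven, at 3.24, 8.53 and 2.73 CPM per kb, with mouse 2 above the others. The lowest members were Mx2, Ifi44 and Ifitm1. Ifitm1, Ifitm2 and Ifitm3 are similar in sequence. The study's methods describe keeping uniquely mapped reads, which leaves out reads that match several of them alike, so their levels are uncertain.

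**Figure D4:**
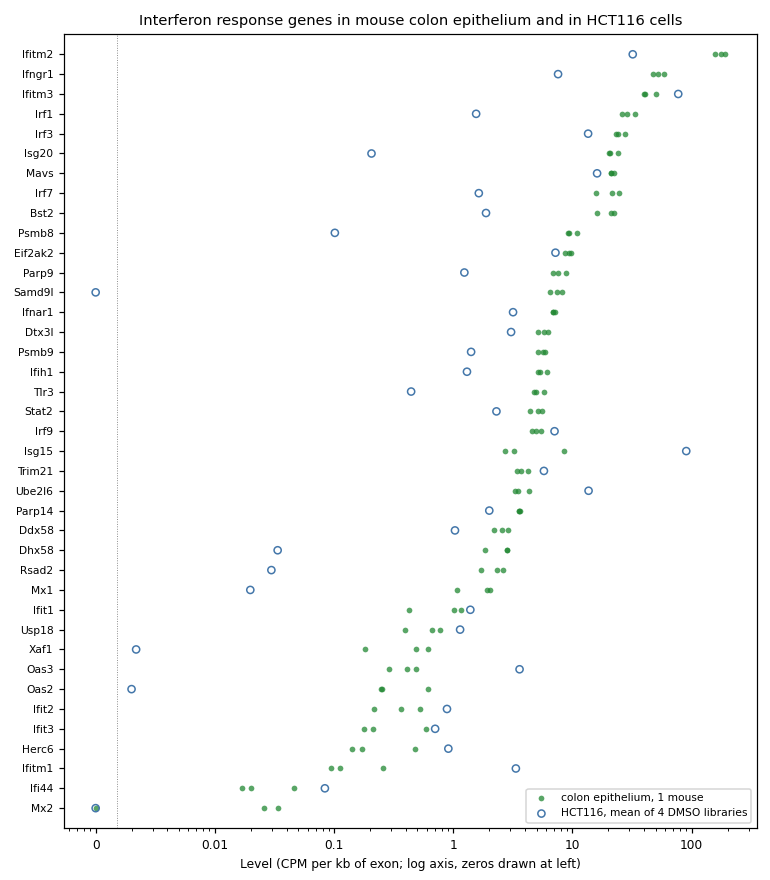
RNA level of the 39 members found in mouse, per length (CPM per kb of exon) on a log axis with zeros at the left edge, in each of 3 mice (green points) and as the mean of 4 HCT116 DMSO libraries for the human gene (open circles). Ifitm2 is the highest in colon at 158 to 192 CPM per kb, while Isg15 is at 2.73 to 8.53 in colon and its human counterpart at 90.1 in HCT116; the species were counted in separate tables and are shown side by side without a test.

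Set beside HCT116 cells, the order of the genes was partly shared (Spearman rho 0.49 over 39 genes, a description across genes from separately counted species). Irf1 stood at a mean of 29.4 CPM per kb in colon and 1.56 in the cell line, Isg20 at 21.6 and 0.206, and Samd9l at 7.35 and 0. The other way round, Isg15 stood at 4.83 in colon and 90.1 in the cell line, Ube2l6 at 3.70 and 13.7, and Oas3 at 0.395 and 3.60 CPM per kb. These differences are of species, cell state and culture at once and cannot be told apart.

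In colon, 30 H3K18cr peaks within 1 kb of a start covered 31 members. The median of their log2 ChIP over input was 1.46, against 1.48 at all 11435 such peaks, a description that leaves out the 8 of 39 members with no H3K18cr promoter peak. The promoter peak with most scaled reads of H3K18cr, a total that grows with peak width, was at Ifngr1 (chr10:19589401-19596150, GRCm38), with 431 and 814 scaled reads against inputs of 163 and 226, a log2 ratio of 1.60. Irf1 (chr11:53768851-53776050) had 407 and 736 scaled reads against 180.0 and 218, a log2 ratio of 1.45. Library 2 was above library 1 at both, as at most peaks. Tlr3 (chr8:45409051-45412050), the endosomal RNA sensor, had 245 and 360 scaled reads (log2 ratio 1.70), and Parp14 (chr16:35870101-35872350) had 237 and 353 with the highest ratio of the members' promoter peaks, 1.97. Per kb of peak the order differed: Parp14 had 131 scaled reads per kb, Tlr3 101, Ifngr1 92.2 and Irf1 79.4.

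H3K4me3 peaks within 1 kb of a start numbered 26 at 26 members, with a median log2 ratio of 2.22 against 2.38 at all 14457 such peaks. Irf1 was the highest with 241, 465 and 594 scaled reads in the 3 libraries against 49 in the shared input, a log2 ratio of 3.02. At Tlr3 the order of the marks was turned: its H3K4me3 was among the lowest, with 43.7, 90.9 and 84.9 scaled reads and a log2 ratio of 1.14. Over the members the 2 marks were only loosely ordered alike (Spearman rho 0.31, 25 genes).

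**Figure D5:**
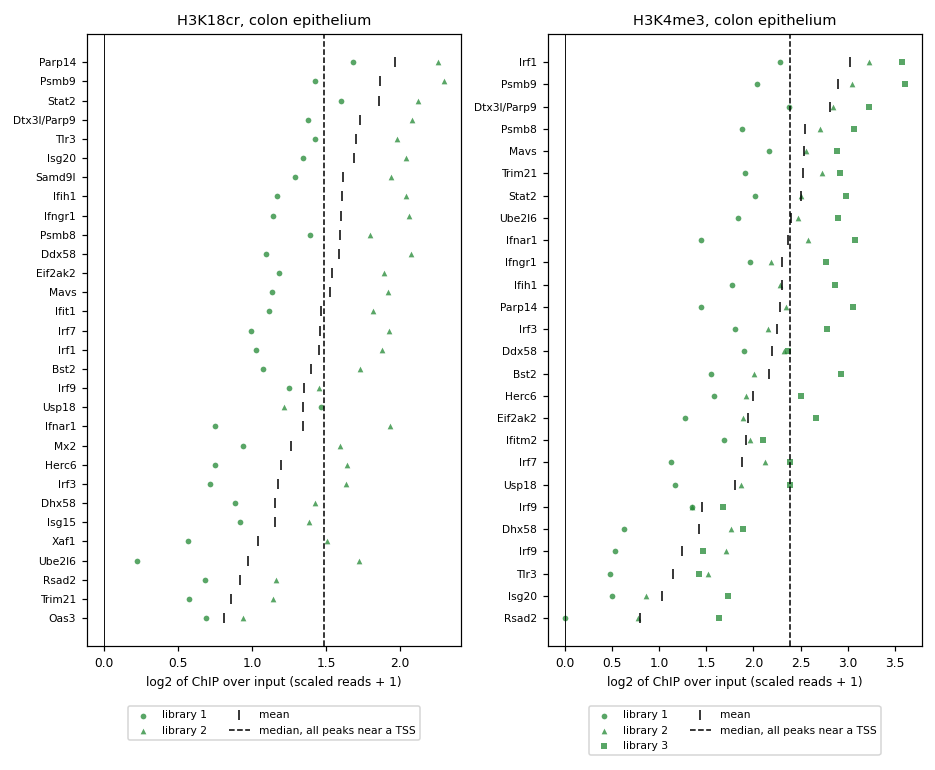
Promoter peaks of the members in mouse colon epithelium, as log2 ratio of ChIP to input on scaled reads plus 1, for H3K18cr (left, 2 libraries) and H3K4me3 (right, 3 libraries with 1 shared input); symbols are libraries, short bars their mean and dashed lines the median of all peaks near a start. The members lie around the dashed lines at 1.48 and 2.38, Parp14 is the highest in H3K18cr at 1.97 and Irf1 in H3K4me3 at 3.02, and library 1 is lowest at most peaks.

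Promoter peaks of both marks were present at 25 members, whose median level was 5.59 CPM per kb. At 6 members (Ifit1, Isg15, Mx2, Oas3, Samd9l and Xaf1) only H3K18cr was called a peak, with a median of 0.648 CPM per kb, and at 7 (Ifi44, Ifit2, Ifit3, Ifitm1, Ifitm3, Mx1 and Oas2) neither was, with a median of 0.370 CPM per kb. Levels and peaks did not match throughout: Ifitm3, at a mean of 43.4 CPM per kb, had no promoter peak of either mark, Ifitm2 had an H3K4me3 peak only, and Mx2, at 0.0199 CPM per kb, had an H3K18cr peak. The level went with the H3K18cr ratio at Spearman rho 0.43 (31 genes) and with the H3K4me3 ratio at 0.26 (26 genes). Both are descriptions across genes, and the ChIP and RNA libraries were prepared separately.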

How the data were processed

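RNA was measured in HCT116 cells and colon epithelium, and histone marks by ChIP-seq. The authors trimmed reads with Trim Galore 0.4.2, and their processing notes also list Bowtie2 2.2.5 and TopHat2 2.0.12 and the builds GRCh38 and GRCm38. The study's methods name HiSat2 for mouse RNA and another Bowtie2 version for ChIP-seq, so which aligner made which table is unclear. They counted reads in SEQMONK over genes and over MACS peaks, with duplicates removed for ChIP-seq. The deposited RNA tables hold raw counts per gene. The libraries were directional, and whether counting used strand is not given in the sources used here. The deposited HCT116 peak table holds log2 values and the deposited colon peak tables hold signal, that is read numbers scaled to the largest library; one peak list serves all libraries of a table.

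RNA was tested with edgeR 4.0.16 (quasi-likelihood, filterByExpr, TMM; R 4.3.3), over all genes. HCT116 peaks were tested with limma 3.58.1 on the log2 values, keeping peaks with at least 10 scaled reads in at least 3 libraries. The Benjamini-Hochberg threshold was 0.05. DESeq2 1.42.0, TMM scaling on the reads behind the scaled values, no filter, the replicate block and left-out libraries were alternatives. Levels per length used GENCODE exons. Scaled reads in HCT116 are the deposited log2 values taken off the log scale. Colon ratios used a pseudocount of 1 scaled read.

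Same-numbered DMSO and MS275 RNA libraries deviated together (correlations of deviations 0.226, 0.151, 0.433 and 0.46). They were treated as pairs, and blocked values stand in the report. Among libraries with unlike numbers, DMSO 2 with MS275 4 (0.239) and DMSO 4 with MS275 2 (0.219) also correlated, above the 0.151 of number 2. These values therefore do not single out the pair numbered 2. The labels do not say what the numbers mark. In H3K18cr the same-numbered correlations were 0.108, 0.0729 and 0.229 and in H3K18ac -0.207, 0.0464 and -0.134, not all above 0.1. ChIP values in the report are therefore unblocked, and blocked values stand beside calls they end. Calls that the block adds are not named. With it the lower H3K18cr peaks at member promoters went from 13 to 16 of 33. The study's own test of these ChIP libraries was paired. RNA replicates are described as biological by the study; for HCT116 ChIP the methods speak of 2 biological replicates (after the qPCR steps) and of 2 replicates in the H3K18cr sequencing analysis, while 3 libraries per group were deposited. Some may share a culture, so p-values measure the spread between these libraries.

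The members, roles, pathway genes and markers were chosen with earlier results of these data known. Values in every library are given for members called with or without the block, the 2 highest members of each role, the largest called changes at promoter peaks (up to 4 for each mark and direction), and in colon the 6 highest members and the 4 promoter peaks with most H3K18cr. The fitting steps were tested on simulated data. Promoter windows were not used for 9 members: DHX58, IRF3, IRF7, IFIT2, OAS2, OASL, IFITM2, MX2 and USP18.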

Additional observations from a re-analysis of the deposited data

How the results depend on the processing

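With the replicate number as a block, 8 members had called RNA, and 9 with DESeq2 and the block, against 0 without it. Fits that left out a library gave 0 without the block and 2 to 7 with it. Of the 52 H3K18cr peaks, 13 were lower; 5 with TMM scaling and 2 with DESeq2, and 7 to 17 when a library was left out. Of the H3K18ac peaks, 11 were lower; 7 with DESeq2, 2 to 16 when a library was left out, and 2 with the replicate block, where same-numbered libraries did not deviate together. The block gave 17 for H3K18cr, and it called none in the difference between the marks. The higher H3K18cr calls went from 1 to 2 and those of H3K18ac from 0 to 2 with TMM scaling, and the former lay between 0 and 1 when a library was left out. Per length of the gene interval in place of exons, the median level was 1.34 CPM per kb in colon and 0.352 in HCT116. The medians of all genes given above rest on exon length and cannot be set beside these. With libraries scaled to equal reads in peaks, the median log2 ratio to input at colon member promoters was 0.0278 for H3K18cr and -0.0338 for H3K4me3. That scaling gives ChIP and input the same total within the peaks. A typical ratio near 0 follows from it, so enrichment cannot be read there. With each library alone the median log2 ratio was 1.10 to 1.85 for H3K18cr and 1.63 (library 1) to 2.78 for H3K4me3. Directions that turned belong to members near no change or near 0 counts. IFIH1 was -0.0098 with no filter and from -0.3198 to 0.3943 when a library was left out (-0.1384 without the pair numbered 3, with the block). EIF2AK2 was -0.0021 with the block, -0.0038 with DESeq2, -0.0088 with DESeq2 and the block, -0.0043 with RLE factors and -0.0073 with no filter, and from -0.1234 to 0.157 when a library was left out (with the block, -0.0848 without pair 1 and -0.004 without pair 2). ISG15 lay between -0.5571 and 0.2001 when a library was left out. PSMB8 was 1.2 with the block, 1.39 with DESeq2 and the block and 0.0017 with no filter, and lay between -0.4145 and 1.8039, the latter without DMSO library 3 (with the block, 0.8621, 0.6179 and 1.2945 without pairs 1, 2 and 4). Among the alternatives for single named genes and peaks, 341 kept direction and side of the threshold, 35 gained a call, 16 lost one, 30 turned and 4 moved. The 8 members below the filter were too low to test, and DHX58 and PSMB8 rested on 0 to 74 and 0 to 39 counts per library.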

Other observations

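The other pathway genes were read in the same way. Of 52, 44 were found in the colon table by mouse spelling. Among the highest were Ly6e at 127 ± 13.4 CPM per kb (SD, n = 3), Lgals3bp at 55.9 ± 4.51 and Plscr1, a membrane scramblase, at 38.0 ± 3.97. The second interferon gamma receptor chain Ifngr2 stood at 27.1 ± 2.19 CPM per kb and the kinase Jak1 at 21.8 ± 1.19. The chemokine gene Ccl5 stood at 11.1 ± 3.53.

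At the promoters of these pathway genes in HCT116, 20 of 41 H3K18cr peaks and 11 of 41 H3K18ac peaks were lower with MS275 by limma and 0 were higher. Those shares, 48.8% and 26.8%, were below the 55.1% and 43.1% of all promoter peaks. With TMM scaling in edgeR 5 and 13 were lower (12.2% and 31.7%), against 30.5% and 44.1%. With DESeq2 2 of 28 and 12 of 33 with an adjusted p were lower, against 31.9% and 42.2%. When a library was left out, the limma counts moved with the share of all promoter peaks. H3K18cr gave 9 (all promoters 38.1%) without DMSO library 1, 10 (38.2%) without MS275 library 2, 12 (40.3%) without DMSO library 2, 12 (39.7%) without MS275 library 1 and 24 (69.2%) without DMSO library 3. H3K18ac gave 1 (9.82%) without MS275 library 2, 2 (13.1%) without MS275 library 3, 5 (21.0%) without DMSO library 2, 17 (50.5%) without MS275 library 1, 20 (56.4%) without DMSO library 1 and 0 (5.40%) in the blocked fit. The TRAF3 and PLSCR1 peaks had H3K18cr log2 changes of -0.90 ± 0.17 and -0.93 ± 0.20 (limma, adjusted p = 0.000233 and 0.000651), and H3K18ac changes of -0.86 ± 0.25 and -1.09 ± 0.25 (limma, adjusted p = 0.008 and 0.000613). The H3K18ac calls were lost in the blocked fit (limma, adjusted p = 0.159 and 0.05003), and that of TRAF3 without DMSO library 2, MS275 library 2 or MS275 library 3 (highest 0.145). These genes were chosen after their values were seen.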
